A study of Homo sapiens with 2 samples.

Results

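C-to-U edit sites in the transcripts of RBFOX2 and of 9 other tissue splicing regulators (MBNL1, MBNL2, QKI, PTBP1, PTBP2, PTBP3, CELF1, TIA1 and TIAL1) were examined in 2 long-read libraries. Each collapsed long-read locus was given the GENCODE gene with which it shared the most exonic bases on the same strand of hg38, and the loci that received one of the 10 symbols were kept. Of the 10 genes, 8 had a locus, among 12178 loci with a listed edit site in all. MBNL1 and PTBP3 received no locus and were not analysed here. The 8 loci held 131 isoform models.

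HEK293T cells (HEK293XT in the labels), an immortalized line from embryonic kidney, were methanol-fixed and given recombinant APOBEC1, a cytidine deaminase, fused to a nanobody against rabbit IgG. In the RBFOX2-INSCRIBE sample a rabbit anti-RBFOX2 antibody was bound first, so that the fusion was brought to the RBFOX2 protein. The enzyme-only sample received the fusion without that antibody and measured background editing. Each group had 1 library, numbered replicate 2 for RBFOX2-INSCRIBE and replicate 1 for enzyme-only, so every difference below is between 2 libraries and carries no p-value. All intervals are exact 95% intervals and cover counting error only. Both libraries listed C-to-U positions, and the reads of all listed loci summed to 2431345 in RBFOX2-INSCRIBE and 2233600 in enzyme-only. Of the 6 genes taken as markers of the HEK293T line, 5 were listed in at least 1 table. KRT18 and NEFM were listed in both. VIM, with 1367 reads, was listed in RBFOX2-INSCRIBE alone, and KRT8 and PAX2 in enzyme-only alone. A gene can thus be missing from 1 table though deeply read in the other. None of 6 adult kidney, 3 blood, 2 fibroblast and 1 liver markers was listed.

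RBFOX2 is an RNA-binding protein that recognizes UGCAUG, often in introns beside alternative exons, and it also acts on its own transcript and on those of other splicing factors. MBNL, CELF, QKI and PTBP proteins bind other short motifs and set the splicing patterns of muscle, brain and other tissues. PTBP1 represses splicing in most non-neuronal cells and restrains its paralog PTBP2 by the skipping of a short exon. TIA1 and its paralog TIAL1 bind U-rich sequence beside weak 5' splice sites and in 3'UTRs.

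The sequences that the results turn on are shown 5' to 3' on the transcribed strand of hg38, with listed edited cytosines and every UGCAUG, with T for U, in capitals. In TIAL1, 4 sites of RBFOX2-INSCRIBE surrounded 1 UGCAUG, and both windows shown share that motif.
TIAL1, chr10:119580209-119580238, minus strand, 1 RBFOX2-INSCRIBE site before the motif: agCacaggctatttgattaggtTGCATGtt
TIAL1, chr10:119580188-119580217, minus strand, 2 RBFOX2-INSCRIBE sites after the motif: tTGCATGtttattacatgtttttgtCctaC
RBFOX2, chr22:35781633-35781662, minus strand, coding exon, 1 RBFOX2-INSCRIBE site: cggcTGCATGtctctaatattcctttCcgc
The position with the most converted reads in PTBP1 lay in its 3'UTR with another 2 RBFOX2-INSCRIBE sites close by, whereas 2 adjacent enzyme-only sites lay in an exon that only a few models hold.
PTBP1, chr19:811476-811505, plus strand, 3 RBFOX2-INSCRIBE sites: ttccagttgaCcaaatattCtaatCttttt
PTBP1, chr19:808331-808360, plus strand, 2 enzyme-only sites: actcaggccccatcCCtgggcttttgaagg
In PTBP2, chosen after the values were seen, 3 windows held 1 site of each library at 5 nt from each other.
PTBP2, chr1:96813452-96813481, plus strand: tcacctatttgaCtgttCagaaaagtgggg
PTBP2, chr1:96813522-96813551, plus strand: tcttttttttttCcatgCtgttatcattcc
PTBP2, chr1:96814294-96814323, plus strand: ggttgtggatttCtgagCatgtgcagactg

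TIAL1 carried the most edit sites of the 8 regulators in both libraries, TIA1 was edited at 13 positions in RBFOX2-INSCRIBE against 1 in enzyme-only, and the assigned locus of RBFOX2 itself had the same number of sites in both. These counts leave out positions that both tables list, and what remains is called unshared sites. The 8 loci had 88 listed sites in RBFOX2-INSCRIBE and 68 in enzyme-only, at 152 distinct positions. Of these, 4 were listed in both libraries at the member loci, and 1 enzyme-only position of RBFOX2 was listed in RBFOX2-INSCRIBE under another locus, described with RBFOX2 below. Without these 5 positions, 84 and 63 unshared sites remained. TIAL1 held 47.6% of the former and 33.3% of the latter. The tables give the reads of the whole gene and list a position only above an edit fraction of 0.002, so a gene of 500 reads or more needs over 1 converted read for a site to be listed. That minimum was 3 converted reads for PTBP1 and 1 for every other member, in each table that listed the gene.

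TIAL1 (TIAR, chr10:119571804-119597024, minus strand) had 40 unshared sites over 207 reads in RBFOX2-INSCRIBE and 21 over 175 reads in enzyme-only. Per 1000 gene reads this was 193 sites (138 to 263) and 120 sites (74.3 to 183), and the intervals overlapped. Its paralog TIA1 (chr2:70210207-70248740, minus strand) had 13 sites over 126 reads and 1 site over 101 reads, or 103 (54.9 to 176) and 9.90 (0.251 to 55.2) per 1000 reads. The intervals of TIA1 touched over a narrow range. Its locus also overlapped exons of C2orf42 on the same strand, so reads at its 5' end may come from either gene.

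RBFOX2 (chr22:35743945-36028525, minus strand) had 9 unshared sites in each library, over 247 reads in RBFOX2-INSCRIBE and 221 in enzyme-only. This gave 36.4 sites per 1000 reads (16.7 to 69.2) and 40.7 (18.6 to 77.3). At this locus, which encodes the antibody's own target, the intervals of the libraries overlapped almost fully. A locus without an isoform model, inside the bounds of RBFOX2 and on its strand, had 7 unshared sites over 121 reads against 1 over 109 reads. With it RBFOX2 had 16 against 10 sites, and the direction of its log2 ratio, given below, turned from -0.26 to 0.39. PTBP2 (chr1:96721784-96814787, plus strand), the neuronal paralog of PTBP1, was alike, with 9 sites over 301 reads and 10 over 287 reads, or 29.9 (13.7 to 56.8) and 34.8 (16.7 to 64.1) per 1000 reads.

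PTBP1 (chr19:797415-812321, plus strand), the polypyrimidine tract-binding repressor, was the most deeply sequenced member and among the least edited per read. It had 9 unshared sites over 1270 reads in RBFOX2-INSCRIBE and 4 over 1165 reads in enzyme-only, which was 7.09 (3.24 to 13.5) and 3.43 (0.936 to 8.79) per 1000 reads, and its higher read minimum lowers these values relative to the other members. QKI (chr6:163535045-163573795, plus strand), which binds a motif often found in 3'UTRs and introns, had 4 sites over 477 reads and 1 over 393 reads, or 8.39 (2.28 to 21.5) and 2.54 (0.0644 to 14.2). In both genes the intervals of the libraries overlapped.

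CELF1 (chr11:47468403-47553139, minus strand), which binds GU-rich elements, and MBNL2 (chr13:97222377-97394113, plus strand), a muscleblind protein that opposes CELF proteins at many exons, were listed in enzyme-only alone. CELF1 had 12 sites there over 452 reads and MBNL2 5 sites over 37 reads, or 26.5 (13.7 to 46.4) and 135 (43.9 to 315) per 1000 reads. The RBFOX2-INSCRIBE table held no row of either gene and so no read number, and whether the genes were covered by fewer reads there was not tested. No fold is given for either gene.

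Among the 5196 loci with 50 to under 500 reads in both tables, the median was 83.7 unshared sites per 1000 reads in RBFOX2-INSCRIBE and 73.4 in enzyme-only. TIAL1 lay above 92.5% of these loci in RBFOX2-INSCRIBE and above 78.8% in enzyme-only. RBFOX2 lay above 17.6% and 24.3%, PTBP2 above 13.95% and 19.8%, and QKI above 2.14% and 0.250%. TIA1 moved most within this order, from above 2.93% of loci in enzyme-only to above 63.0% in RBFOX2-INSCRIBE.

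**Figure D1:**
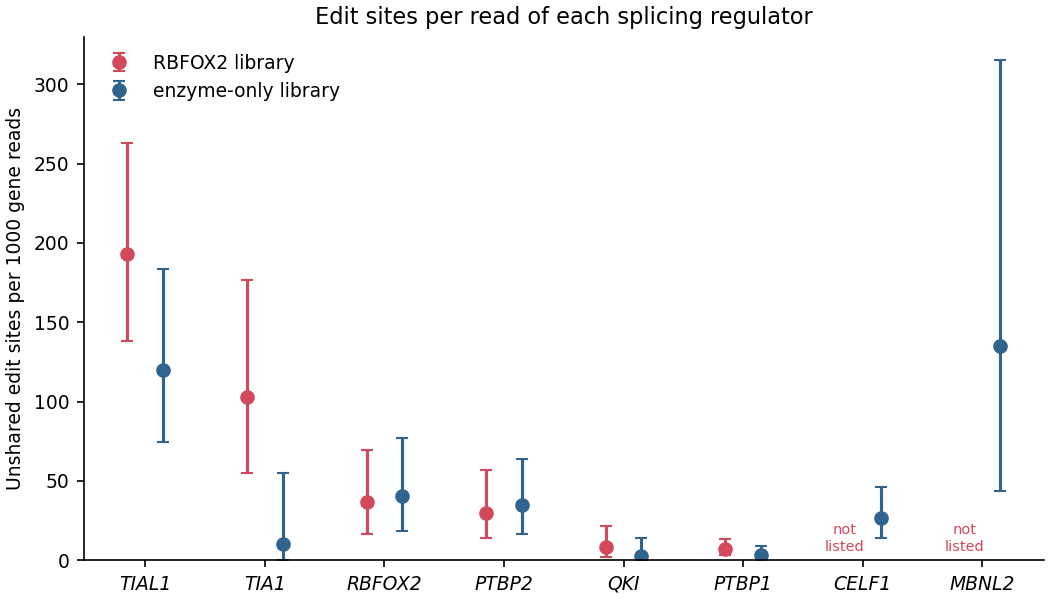
Unshared edit sites per 1000 reads of the gene (y axis) for each regulator (x axis) in the RBFOX2-INSCRIBE library (red) and the enzyme-only library (blue), where points are the values of single libraries and bars are exact 95% Poisson intervals. TIAL1 stands at 193 and 120, TIA1 at 103 and 9.90, and RBFOX2 and PTBP2 have near equal values in both libraries.

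The libraries were then compared as the log2 ratio of RBFOX2-INSCRIBE over enzyme-only unshared sites, after 0.5 was added to each count and the totals of 109357 and 91111 unshared sites were scaled to each other. TIA1 had a log2 ratio of 2.91 (0.70 to 8.85), the one member listed in both tables whose interval excluded 0. All 14 of its sites had 1 converted read, so a minimum of 2 converted reads leaves no site and ends that call. Among the 5594 loci with at least 10 sites, the interval lay above 0 in 13.8% and below 0 in 13.0%. TIAL1 had 0.65 (-0.13 to 1.502), PTBP1 0.81 (-0.93 to 3.06) and QKI 1.32 (-1.60 to 7.36). RBFOX2 had -0.26 (-1.77 to 1.24) and PTBP2 -0.41 (-1.89 to 1.04). These intervals span 0, and those of RBFOX2 and PTBP2 still allow a change of over 2-fold either way. Over the 8 members together the log2 ratio was 0.15 (-0.34 to 0.65), and without TIAL1 it was -0.20. Both values count CELF1 and MBNL2 as 0 in RBFOX2-INSCRIBE, where their read numbers are unknown. Over the members listed in both libraries alone, TIAL1 included, the log2 ratio was 0.60, from 84 against 46 sites. No interval was computed for this value, and the interval above belongs to the one that counts missing rows as 0.

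Of the 6 members with at least 10 unshared sites, TIA1 was above a log2 ratio of 1 and CELF1 below -1. The latter rests on a missing row taken as 0, with no read number, and is not a measured fold. Among the same 5594 loci, 19.4% were above 1 and 17.2% below -1, so 1 of 6 in each direction was close to the background. The median log2 ratio was 0.19 over these 6 members, CELF1 included, and 0.07 over the 5594 loci. Among those loci, too, a gene missing from 1 library was counted as 0 there. With at least 20 sites, 16.8% of 3604 loci were above 1 and 14.6% below -1, and TIAL1, the 1 member with that many, was past neither limit.

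**Figure D2:**
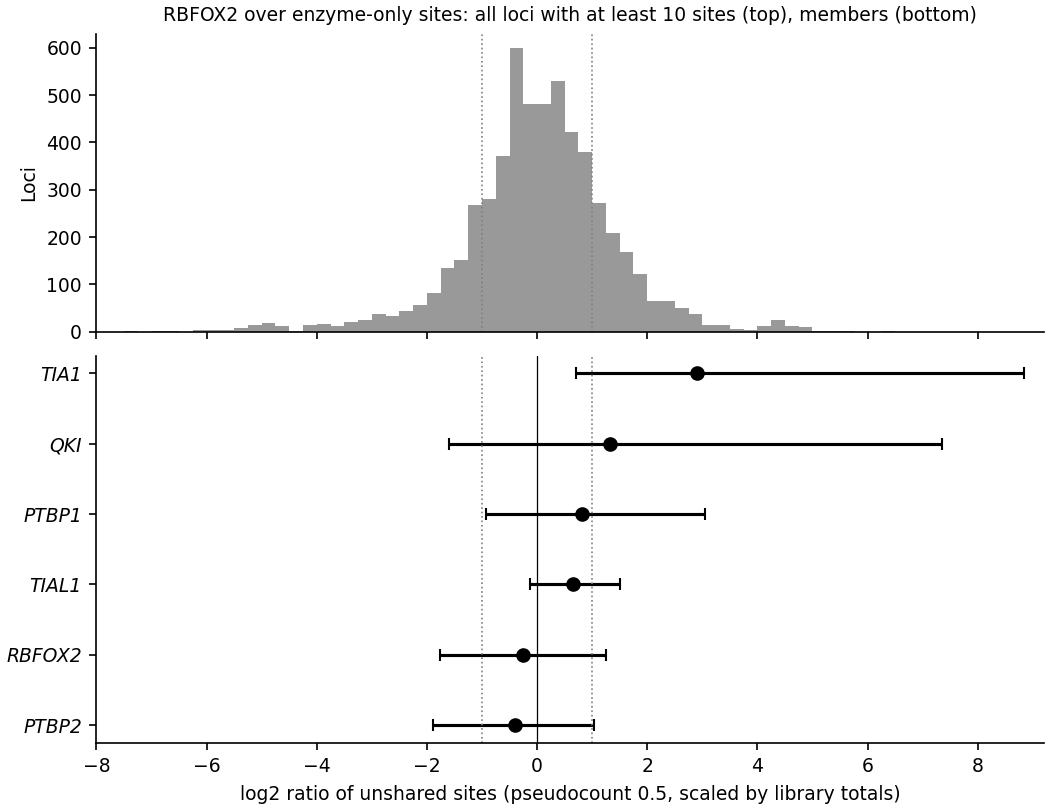
Top, number of loci (y axis) by log2 ratio of unshared sites (x axis, shared) for the 5594 loci with at least 10 sites. Bottom, log2 ratio of each member listed in both tables with its exact 95% interval, where dotted lines mark -1 and 1: TIA1, at 2.91, has the one interval that excludes 0.

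Sites near UGCAUG were few in the regulators, and 4 of the 7 in RBFOX2-INSCRIBE came from 1 window of TIAL1. Of the unshared sites, 7 of 84 in RBFOX2-INSCRIBE (8.33%, 3.42 to 16.4) and 3 of 63 in enzyme-only (4.76%, 0.993 to 13.3) lay within 50 nt of UGCAUG on the transcribed strand. Of all 7487 exonic cytosines of the 8 loci, 5.17% lay as close, a value inside both intervals. Within 200 nt the RBFOX2-INSCRIBE share, 15.5%, was below the 18.1% of cytosines, and with GCAUG or GCACG within 50 nt it was 10.7% against 13.5%, so the direction relative to cytosines turned in both. The enzyme-only shares were 11.1% and 9.52%, lower than those of RBFOX2-INSCRIBE with overlapping intervals. Over all loci the shares were 3.96% (3.84 to 4.08) in RBFOX2-INSCRIBE and 2.32% (2.22 to 2.42) in enzyme-only, against 2.50% and 2.47% of the exonic cytosines of the listed genes. Without TIAL1 the shares in the members were 6.82% (3 of 44) and 7.14% (3 of 42).

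The TIAL1 motif at chr10:119580211-119580216 had RBFOX2-INSCRIBE sites at 119580236, 119580192, 119580188 and 119580174, which is 20 nt before the motif and 19, 23 and 37 nt after it. Each had 1 converted read, and enzyme-only listed no site within 50 nt of that motif. It lay in the 595-nt first exon of a single isoform model of 26, PB.31124.14, which starts inside an intron of 1911 nt that 11 models splice out. The table does not name reads, so the 4 sites may come from 1 molecule. Another UGCAUG of the same exon, and 1 in the 3'UTR of TIAL1, had no site within 50 nt in either library.

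In RBFOX2, the coding-exon UGCAUG at chr22:35781653-35781658 had an RBFOX2-INSCRIBE site 17 nt after it, at 35781636. An enzyme-only site at 35768303 lay in another coding exon with UGCAUG in the intron on either side, 48 nt after the site and 50 nt before it. PTBP2 had RBFOX2-INSCRIBE sites at 96805707 and 96814306, 45 nt and 40 nt before a UGCAUG, and an enzyme-only site at 96814311, 35 nt before the same 3'UTR motif. The latter pair is the third PTBP2 window printed above. MBNL2 had an enzyme-only site at 97391472, 27 nt after a UGCAUG. The exons of QKI, PTBP1 and TIA1 held 2, 3 and 2 UGCAUG with no site close to them in either library, and those of CELF1 held none.

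**Figure D3:**
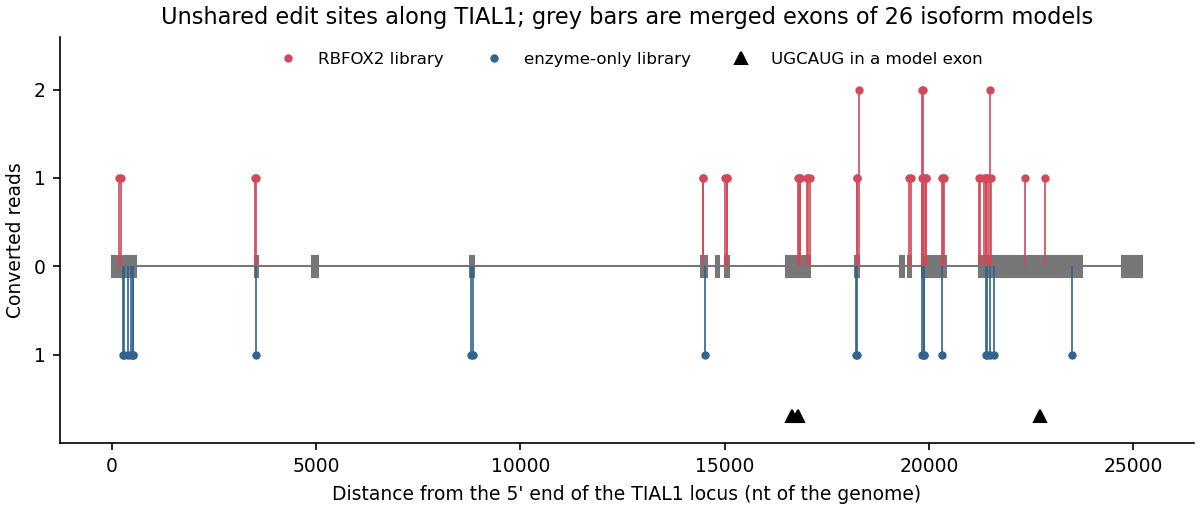
Unshared sites along TIAL1, by distance in nt from the 5' end of the locus (x axis) and converted reads (y axis), with RBFOX2-INSCRIBE sites in red above the line, enzyme-only sites in blue below it, merged exons of 26 models in grey and exonic UGCAUG as triangles. Red sites lie around the 3' one of the paired motifs near the middle, where no blue site is seen, and blue sites outnumber red ones at the 5' end, 6 against 2.

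In both libraries most edited cytosines of the members followed A or U, with a higher share in RBFOX2-INSCRIBE. APOBEC1 prefers a cytosine after A or U. Of the unshared sites of the members, 67 of 84 in RBFOX2-INSCRIBE (79.8%, 69.6 to 87.7) and 37 of 63 in enzyme-only (58.7%, 45.6 to 71.0) followed A or U, against 49.3% of exonic cytosines. The intervals overlapped narrowly. A cytosine after G was listed 5 times (5.95%) in RBFOX2-INSCRIBE and 13 times (20.6%) in enzyme-only. Without TIAL1 the shares after A or U were 77.3% and 57.1%. Over all loci they were 71.7% (71.5 to 72.0) and 63.8% (63.5 to 64.2).

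Positions converted in more than 1 read were rare outside PTBP1. Of the unshared sites, 13 of 84 in RBFOX2-INSCRIBE (15.5%, 8.51 to 25.01) and 5 of 63 in enzyme-only (7.94%, 2.63 to 17.6) had at least 2 converted reads, against 14.3% and 9.45% over all loci. PTBP1, whose listing began at 3 reads, gave 9 of the 13 and 4 of the 5. TIAL1 gave the other 4 in RBFOX2-INSCRIBE, each with 2 reads, and PTBP2 the other 1 in enzyme-only. The highest was PTBP1 at chr19:811486, with 6 converted reads in RBFOX2-INSCRIBE and no listing in enzyme-only. PTBP1 at 812160, a shared position, had 5 converted reads in RBFOX2-INSCRIBE and 3 in enzyme-only.

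By genic region, coding sequence held 48.8% (37.7 to 60.0) in RBFOX2-INSCRIBE and 47.6% (34.9 to 60.6) in enzyme-only, against 34.6% of the exonic cytosines. The 3'UTR held 39.3% (28.8 to 50.5) and 36.5% (24.7 to 49.6), against 42.6% of cytosines, where a position that is coding in any annotated transcript was counted as coding. With the 3'UTR taken first the shares were 71.4% and 66.7%, since many coding positions of TIAL1, PTBP2 and RBFOX2 are annotated as 3'UTR in another transcript. The 2 libraries did not differ beyond their intervals in any region.

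**Figure D4:**
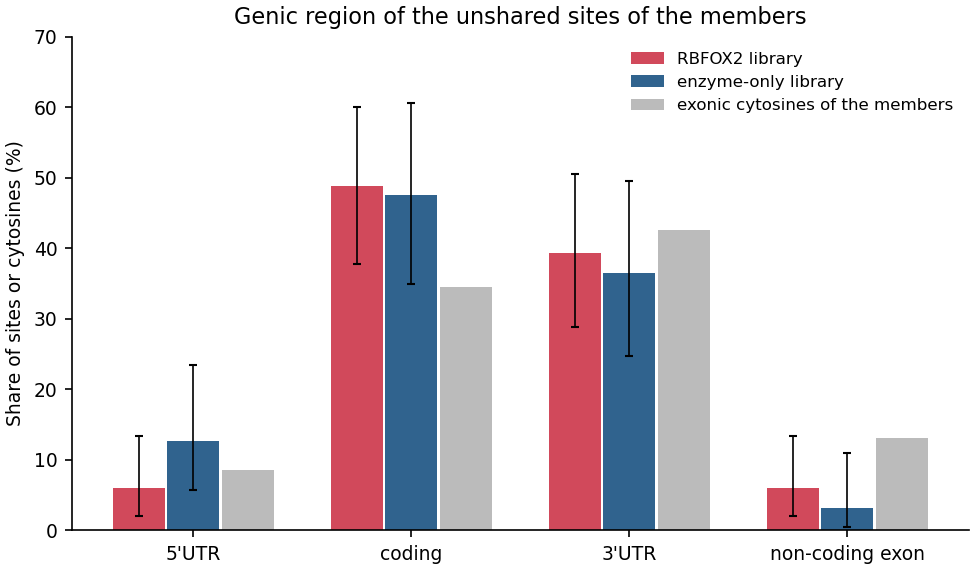
Share of the unshared sites of the members (y axis, %) by genic region (x axis) in RBFOX2-INSCRIBE (red, 84 sites) and enzyme-only (blue, 63 sites), with exact 95% binomial intervals as bars, and the share of exonic cytosines in grey. Coding sequence holds 48.8% and 47.6% of sites against 34.6% of cytosines, and intervals of the libraries overlap in every region. TIAL1 gives 27 of the 41 coding sites of RBFOX2-INSCRIBE.

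Single genes differed from this mean. All 9 unshared RBFOX2-INSCRIBE sites of PTBP1 lay in its 3'UTR, while 2 of its 4 enzyme-only sites, at 808345 and 808346 with 3 and 4 converted reads, lay in an exon annotated as non-coding and held by 2 of 33 models. Both followed a C, as the printed window shows. All 4 RBFOX2-INSCRIBE sites of QKI and its 1 enzyme-only site lay in the 3'UTR. TIA1 had 5 RBFOX2-INSCRIBE sites in the 3'UTR, 5 in coding sequence and 3 in the 5'UTR, so its excess was not confined to 1 region. In RBFOX2 all 9 enzyme-only sites were coding, against 7 of 9 in RBFOX2-INSCRIBE. CELF1 had 7 coding and 5 3'UTR sites in enzyme-only. In TIAL1 the 5'UTR held 6 of 21 enzyme-only sites (28.6%, 11.3 to 52.2) and 2 of 40 RBFOX2-INSCRIBE sites (5.0%, 0.611 to 16.9), and coding sequence 10 and 27.

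Of the sites within the coding sequence of the MANE Select transcript, a C-to-U change would alter the amino acid at 26 of 39 in RBFOX2-INSCRIBE and 15 of 28 in enzyme-only. It would create a stop codon at 1 and 3. The edits were made in fixed cells, so these are properties of the positions and not of proteins the cells made.

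Some unshared sites of the libraries lay close together. Of the 84 RBFOX2-INSCRIBE sites, 15 (17.9%) had an enzyme-only site within 10 nt, beside 14.1% over all loci, 8 of them in TIAL1 and 4 of the 9 in PTBP2. In PTBP2 the distance was 5 nt in 3 of these 4 cases, those printed above. In RBFOX2, 2 of the 9 sites had such a neighbour, 1 of them at the adjacent base.

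Editing was also expressed per isoform as editsC, the share of an isoform's exonic cytosines that were listed. A site counts for every model that holds it and reads are not assigned to models, so isoforms of 1 gene are not independent. Of the 131 models 130 held at least 1 unshared site. Their median editsC was 1.29% in RBFOX2-INSCRIBE and 1.42% in enzyme-only, beside 2.07% and 1.68% over 108386 isoforms of all loci. When each gene was represented by its most cytosine-rich model, the medians were 1.01% and 0.992%, so their order turned. Of the 130 models 54.6% were higher in RBFOX2-INSCRIBE and 44.6% in enzyme-only, beside 56.7% and 36.0% of all isoforms. The 33 models of CELF1 and 2 of MBNL2 count as 0 in the member medians of RBFOX2-INSCRIBE, which listed neither gene. They also count as higher in enzyme-only. The order of the member medians thus rests in part on missing rows and is not a measured difference. TIAL1 stood apart, with a median of 8.30% (range 0 to 14.1) in RBFOX2-INSCRIBE and 4.06% (0.472 to 6.25) in enzyme-only over 26 models, and 23 of the 26 were higher in RBFOX2-INSCRIBE. All 33 models of PTBP1 (median 1.06% against 0.224%) and all 12 models of TIA1 with a site (3.02% against 0.246%) were higher in RBFOX2-INSCRIBE. For RBFOX2, 10 of 11 models were higher in enzyme-only (1.45% against 2.54%), as were 10 of 11 for PTBP2 (2.58% against 2.90%).

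A line fitted to editsC of all isoforms placed 13 member isoforms over 1.5 SD above it, all of TIAL1, and none below. Over all isoforms 6.47% were that far above the line and 2.45% that far below. The 6 TIAL1 models that reach the listed 5'UTR sites had editsC of 6.46% to 7.14% in RBFOX2-INSCRIBE and 3.84% to 4.36% in enzyme-only, and none of them was among the 13. Of the 20 models without those sites 13 were over 1.5 SD above the line, so lacking that 5' end did not by itself mark them. The TIAL1 models not that far above the line held 129 to 495 exonic cytosines, a range that overlapped the 90 to 322 of the 13. The one model with the intronic UGCAUG was among the 13, with 9.01% in RBFOX2-INSCRIBE and 3.11% in enzyme-only.

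**Figure D5:**
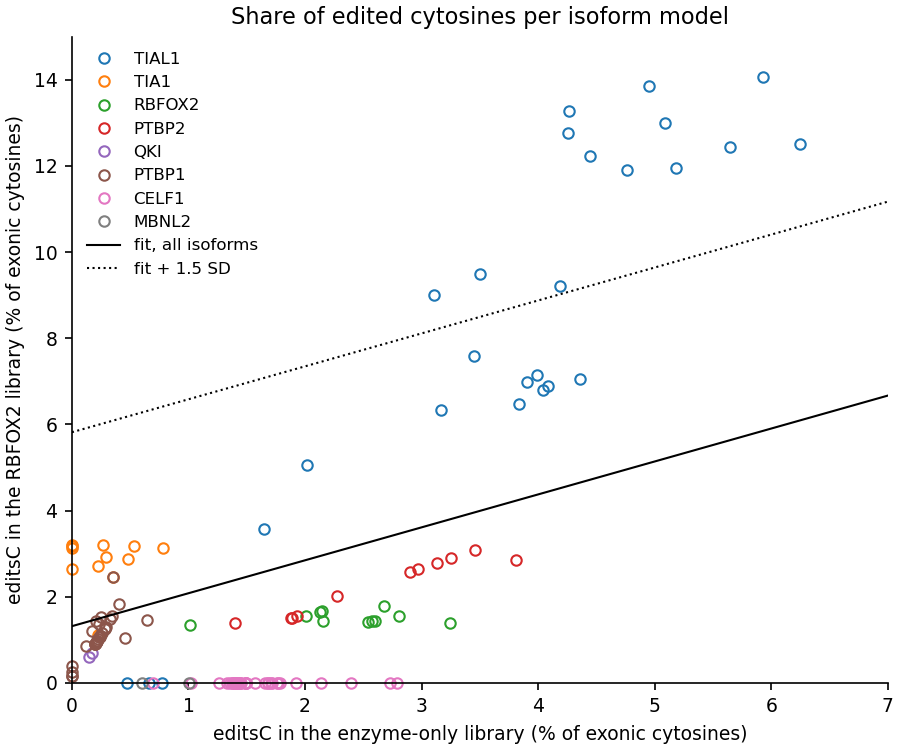
editsC per isoform model in enzyme-only (x axis) and RBFOX2-INSCRIBE (y axis), both in % of exonic cytosines, for the 130 member isoforms with a site, coloured by gene; the solid line is the fit to 108386 isoforms and the dotted line lies 1.5 SD above it. The 13 points above the dotted line are all TIAL1, and CELF1 and MBNL2 lie at 0 on the y axis, as RBFOX2-INSCRIBE listed neither gene.

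The models also showed which alternative exons of the regulators the long reads caught. An internal exon was taken as a cassette where another model joined its neighbours directly. There were 12 in 6 members, and they held 3 RBFOX2-INSCRIBE and 3 enzyme-only sites. Numbers of models are not abundances. The 40-nt exon of RBFOX2 (chr22:35756105-35756144) was present in 7 models and skipped in 2, with a UGCAUG 78 nt before it. The 33-nt exon of TIA1 (chr2:70229059-70229091) was present in 4 and skipped in 4, and it carried 1 RBFOX2-INSCRIBE site, the eighth base of the exon.
TIA1, chr2:70229062-70229091, minus strand, first 30 bases of the 33-nt exon: gtagtacCgttgtcagcacacagcgttcac
PTBP1 and PTBP2 share an exon of 34 nt whose skipping shifts the reading frame. It was present in 25 models and skipped in 1 for PTBP1 (chr19:807869-807902), and present in 4 and skipped in 2 for PTBP2 (chr1:96806419-96806452). The exons were identical at 25 of 34 bases, and neither carried a listed site. The first 30 bases are shown to set the paralogs side by side, with the bases that differ in capitals.
PTBP1: aGAgtCacAccccaaagCctCtttaTTctT
PTBP2: aTGgtTacGccccaaagTctGtttaCCctC
A UGCAUG lay within 250 nt of 6 of the 12 cassettes, beside 16.5% of 95803 internal exons of all models, cassette or not. The sets are unlike and the share for cassettes of all loci was not computed, so no enrichment is read from this. The 78-nt and 57-nt cassettes of PTBP1, which end at the same base, share 1 motif 35 nt after the exon, and the 34-nt exon of PTBP2 had 2, 160 and 177 nt after it. None of the listed sites lay within 50 nt of these motifs in PTBP1, or of the 2 in PTBP2.

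Other tissue splicing regulators were counted in a list of 26 genes (RBFOX, MBNL, CELF, NOVA, ESRP, KHDRBS, ELAVL, SRRM, RBM, HNRNPLL and MSI families). Of these, 14 had a locus and 9 a listed site, with 54 unshared sites in each library. Of the 5 with at least 10 sites, 1 was above a log2 ratio of 1 and 2 were below -1, beside the 19.4% and 17.2% of all loci. The one above was HNRNPLL, a regulator of splicing in lymphocytes, with 8 against 2 sites. Those below were MSI1, an RNA-binding protein of neural progenitors, with 0 against 16 sites and no row, and so no read number, in the RBFOX2-INSCRIBE table, and its paralog MSI2, with 2 against 10.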

How the data were processed

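Per the labels, RNA was prepared with an Iso-Seq SMRTbell kit and the tables use hg38. The study's methods describe a Kinnex kit, consensus reads aligned with pbmm2 and edits called with the authors' code; versions behind these tables are not given in the sources used here. For each position the authors deposited a count of converted reads, the count of reads of the gene, and an edit fraction, which is the former divided by the latter. A deposited confidence score entered only 1 alternative. A deposited table of isoform models gave exons and no expression.

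Loci were named by GENCODE 44. Members and lists were chosen with earlier results of these data known. All listed positions were cytosines in hg38. Sites shared by both libraries were left out, after the study's removal of common edits. Shares carry Clopper-Pearson and rates Poisson exact 95% intervals (scipy 1.17.1), which are counting errors only. Intervals of log2 ratios come from the binomial interval of the RBFOX2-INSCRIBE sites among the sites of both libraries. The ratio was tested on simulated data. UGCAUG was sought on the transcribed strand within 50 nt of a site in the genome. Single positions were named where they had at least 3 converted reads or lay within 50 nt of UGCAUG, at most 5 per member. Comparisons of loci of like depth, of neighbouring sites and of cassette exons were added after the values were seen. Alternatives changed the shared sites, read minimum, fraction, score, assignment, scaling, pseudocount, window, motif, annotation order, isoforms and members.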

Additional observations from a re-analysis of the deposited data

Results flagged for a closer look

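Data outside the comparisons held 1 locus with more sites in RBFOX2-INSCRIBE than in enzyme-only, for which no interval was computed. A locus without an isoform model, which the assignment by exons could not name, lay inside the bounds of RBFOX2 on its strand. It had 7 unshared sites over 121 reads in RBFOX2-INSCRIBE and 1 over 109 reads in enzyme-only, all with 1 converted read and none within 50 nt of UGCAUG. With this locus included, the log2 ratio of RBFOX2 was 0.39 in place of -0.26, a value inside the main interval (-1.77 to 1.24). Every listed position of the locus lay in coding or 3'UTR sequence of at least 1 annotated transcript of RBFOX2, and 0 were intronic in all of them. The 7 unshared RBFOX2-INSCRIBE positions lay outside the exons of the MANE Select transcript. The enzyme-only position and the one at 35761221 lay inside those exons. The position at 35761221 was also listed in enzyme-only at the assigned RBFOX2 locus. Whether those reads belong to RBFOX2 transcripts was not tested further.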

How the results depend on the processing

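No paired analysis was possible because each group had 1 library and the labels number them 2 and 1. Of 102 alternatives to 22 values, 82 stayed inside the main interval, or within 1.5 times of a count, and 20 did not. Some alternatives changed no site, as with the fraction limit, and some main intervals were wide, so this tally does not measure stability. The log2 ratios of TIA1, CELF1 and MBNL2 had intervals that excluded 0. The alternatives that gave a value could not turn them, so no stability is read from this. Those alternatives kept the 13 and 1 sites of TIA1. The ratios of CELF1 and MBNL2 rest on missing RBFOX2-INSCRIBE rows, taken as 0 in every alternative. At least 2 converted reads left these 3 genes no site. With 1 isoform per gene the median editsC was 1.01% and 0.992%, again with CELF1 and MBNL2 taken as 0 in RBFOX2-INSCRIBE. With at least 2 converted reads, 13 and 5 sites were left, the share near UGCAUG was 0% in both libraries, that after A or U 92.3% in RBFOX2-INSCRIBE, that in the 3'UTR 76.9% and 60.0%, and the log2 ratios of PTBP2 and TIAL1 became -2.45 and 2.31. Without scores under 0.5 no site was left (0 in each library). The paper applied a minimum of 0.5 to the scores of its short-read sites and names none for its long-read edits. With the 3'UTR before coding sequence its share was 71.4% and 66.7%, and without TIAL1 it was 59.1% in RBFOX2-INSCRIBE. Within 20 nt of UGCAUG the enzyme-only share was 0% and that of RBFOX2-INSCRIBE 3.57%, against 2.08% of cytosines. Without PTBP1, the one member of over 500 reads, 5.33% and 1.69% of sites had at least 2 converted reads. Scaled by gene reads, over the 6 members in both tables, the log2 ratio of all members was 0.70, and without that scaling it was 0.60. The same read minimum changed no member's sites. Most sites rest on 1 converted read, which limits every count here.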
